A study of Rattus norvegicus with 46 samples.

Results

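The interferon-stimulated genes are the genes that cells switch on after interferons bind their receptors. A list of 39 of them was followed by gene name through 4 count tables, 1 for each tissue and time, and 38 of the 39 were found among the 30045 genes of each table, Xaf1 being the exception. The list has 3 groups: an antiviral branch of 11 genes (the Ifit, Mx and Oas families), a gamma-induced branch of 6 (Gbp2, Gbp5, Irf1, Psmb8, Psmb9 and Tap1) and 21 other members found. All samples came from male Fischer 344 rats, described as aged in the series title, with no genetic change or further agent named in the labels. The rats inhaled filtered air, or quartz dust of respirable size (crystalline silica, Min-U-Sil 5) at 15 mg/m3 in whole-body chambers, 6 hours daily on 5 days. Lung and whole blood were taken 1 day or 6 months after exposure, which gives 8 groups and 46 samples. The groups are lung at 1 day (6 air, 6 silica), lung at 6 months (4 air, 6 silica) and blood at each time (6 air, 6 silica). The age in months was not given in the sources used here.

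Interferons act through 2 receptor arms. Type I and type III interferons drive a complex that includes Stat2 and Irf9 and binds the interferon-stimulated response element, and this arm induces most antiviral genes. Interferon gamma, made mainly by natural killer and T cells, acts through the gamma-activated site and induces Irf1, the guanylate-binding proteins and the machinery that loads peptides on class I molecules. In lung these genes are best known from viral infection and from the response of macrophages and epithelium to interferon, and many genes answer to both arms.

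Levels are given in CPM, the counts of a gene relative to the scaled library total, within each table. Total counts per sample were 13.4 to 24.6 M in lung and 10.6 to 17.5 M in blood. Before scaling, 3 counts thus correspond to 0.122 to 0.224 CPM in lung and 0.171 to 0.282 CPM in blood. In lung, 5 pairs of samples within a group differed at an unadjusted chi-square p under 0.05 in only 7.69% to 9.64% of the genes compared, against 21.3% to 73.1% for the other 46 lung pairs. Each such pair was averaged and counted as 1 library (air 2-7 and 4-8 at 1 day, air 19-24 and 20-25 and silica 30-31 at 6 months, named by the sample numbers in the labels). That left 4 air and 6 silica libraries in lung at 1 day, and 2 air and 5 silica libraries at 6 months. Summed lung tissue markers were 15368 to 58800 CPM in lung and 0.880 to 3.27 CPM in blood, and erythroid markers 49675 to 292113 CPM in blood. Scaling factors in blood ran from 0.521 in silica library 31 to 1.93 in air library 25, with silica libraries 11 (0.697), 33 (0.699) and 36 (1.39) next to these.

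To show the elements that both arms bind, 4 promoters are printed, 2 from each branch. They come from RefSeq (assembly GRCr8), which matched all 39 members by name, with a synonym allowed for Ddx58. It held a promoter for 29 of them, and Ifit1 was not among these. Each printed promoter is the 250 bases before the annotated start. Capitals mark matches to the response-element core (GAAA, any 2 bases, GAAA) or the gamma-activated core TTCNNNGAA on either strand. Ifit3, chosen after its values were seen, lies at chr1:241527076-241527325 on the plus strand. Oas1a lies at chr12:41330216-41330465 on the plus strand. Irf1 lies at chr10:38417685-38417934 on the plus strand. Tap1 lies at chr20:4668544-4668793 on the minus strand.
Ifit3: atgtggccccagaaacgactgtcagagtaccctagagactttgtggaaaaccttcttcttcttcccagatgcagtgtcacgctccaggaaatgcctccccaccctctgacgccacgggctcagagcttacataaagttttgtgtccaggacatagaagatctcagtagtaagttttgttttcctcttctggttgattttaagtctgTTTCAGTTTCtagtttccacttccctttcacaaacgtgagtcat
Oas1a: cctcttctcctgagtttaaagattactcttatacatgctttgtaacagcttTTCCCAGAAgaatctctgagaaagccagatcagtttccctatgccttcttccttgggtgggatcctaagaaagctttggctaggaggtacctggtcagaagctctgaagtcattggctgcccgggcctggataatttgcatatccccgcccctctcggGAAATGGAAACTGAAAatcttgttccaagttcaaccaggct
Irf1: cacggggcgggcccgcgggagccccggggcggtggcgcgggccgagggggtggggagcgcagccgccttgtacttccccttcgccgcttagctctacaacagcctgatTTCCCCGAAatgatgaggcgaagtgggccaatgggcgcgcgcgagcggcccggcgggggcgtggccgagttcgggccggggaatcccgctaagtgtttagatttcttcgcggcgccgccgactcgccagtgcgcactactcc
Tap1: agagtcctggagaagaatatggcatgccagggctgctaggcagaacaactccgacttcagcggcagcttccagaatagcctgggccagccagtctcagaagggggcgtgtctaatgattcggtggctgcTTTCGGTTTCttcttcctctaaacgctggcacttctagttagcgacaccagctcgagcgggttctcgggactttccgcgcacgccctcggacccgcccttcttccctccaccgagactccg

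In these promoters Ifit3 has 1 response-element core, TTTCAGTTTC on the opposite strand, whose first base is 44 before the start. Oas1a has 2 overlapping response-element cores starting 41 and 35 bases before the start, and a gamma-activated core, TTCCCAGAA, 199 before it. Irf1 has only the gamma-activated core, TTCCCCGAA, at 142 before its start. Tap1 has a response-element core on the opposite strand, TTTCGGTTTC, at 121 before its start. Over the full window of 250 bases before to 50 after the start, the response-element core was present in 18 of 29 member promoters (62.1%) and in 1034 of all 27456 promoters (3.77%). It was found in 5 of 7 antiviral, 4 of 6 gamma-induced and 9 of 16 other promoters, Xaf1 included. TTCNNNGAA was present in 9 of 29 member promoters (31.03%) and in 2382 of all promoters (8.68%), with 2 of 7 in the antiviral and 2 of 6 in the gamma-induced branch, so both motifs occurred in both branches. The 2 motifs share letters but neither contains the other, and a match is only a match of letters. Many members are also neighbours on the chromosome. No other protein-coding gene lies between Ifit2 and Ifit3, Oas3 and Oas2, Oasl and Oasl2, Rsad2 and Cmpk2, Parp9 and Dtx3l, Dtx3l and Parp14, Psmb8 and Tap1, or Tap1 and Psmb9.

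In lung 1 day after silica, 2 members rose and both are antiviral: Ifit1, which binds foreign RNA and blocks its translation, rose 2.06-fold, and Oasl2, a relative of the oligoadenylate synthetases, rose 1.19-fold. No member fell. All genes tested passed the same threshold upward in 7.61% of cases and downward in 4.07%, against 2 and 0 of 38 members. In the antiviral branch 11 of 11 estimates were above 0, with a median log2 fold change of 0.20, whereas the gamma-induced branch had 1 of 6 above 0 and a median of -0.10. The other members had 11 of 21 above 0 and a median of 0.02, and all genes had 7917 of 15724 above 0 and a median of 0.0011. The difference between branches was not tested.

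Ifit1 in lung at 1 day was 2.02, 1.85, 1.27 and 1.97 CPM in the air libraries and 3.52, 3.56, 3.22, 5.56, 2.42 and 3.72 CPM in the silica libraries, of which the fourth is library 13 (air 1.78 ± 0.34 (SD, n = 4), silica 3.67 ± 1.03 (SD, n = 6)). Every silica library lay above every air library. The log2 fold change was 1.04 ± 0.23 (SE), and the adjusted p was 0.00918, from the quasi-likelihood test of edgeR, which gave every adjusted p in these results. Its counts were not whole numbers in 100% of samples, so some of its reads were shared with similar transcripts. Oasl2 was 69.8, 56.2, 62.4 and 63.9 CPM in air and 78.4, 67.5, 77.4, 86.3, 70.0 and 70.0 CPM in silica, so the groups overlapped. Its log2 fold change was 0.25 ± 0.08 (adjusted p = 0.0493), and the call was lost in 11 of 15 other fits, the largest adjusted p being 0.138 without air library 5. Without air library 4-8 its adjusted p was 0.116, and without silica library 13 it was 0.0916.

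The next largest changes upward at 1 day did not pass the test. Ifit3, a partner of Ifit1 in the same complex, was 41.2 to 63.7 CPM in air (median 51.9) and 58.6 to 116 CPM in silica (median 71.3), a log2 change of 0.57 ± 0.20 (adjusted p = 0.116). Rsad2, the antiviral enzyme viperin, changed by 0.36 ± 0.15 (adjusted p = 0.167) and Oasl by 0.32 ± 0.11 (adjusted p = 0.0914). Without air library 2-7 the value for Oasl was 0.42, with an adjusted p of 0.0367. Stat2, the interferon signal transducer, was named after its values were seen because its groups did not overlap, at 82.5 to 101 CPM in air and 103 to 112 CPM in silica. Its log2 change of 0.18 ± 0.05 had an adjusted p of 0.0543. Ifit1 and Stat2 were the members with every silica library above every air library, 2 of 38, where 7.41% of all genes tested showed this. No member had every silica library below every air library, where 4.03% of all genes did.

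Other fixed examples gave small estimates at 1 day. The log2 fold change was 0.14 for Isg15, a ubiquitin-like modifier, 0.19 for Mx1, a GTPase that traps viral particles, 0.06 for Oas1a and 0.23 for Irf7, the transcription factor that amplifies type I interferon. Their adjusted p values were 0.437 or more. In the gamma-induced branch the values were 0.08 for Irf1, -0.03 for Gbp2, -0.09 for Psmb9, -0.15 for the immunoproteasome subunit Psmb8 and -0.19 for the peptide transporter Tap1.

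The lowest estimates at 1 day turned on 1 air library. Igtp, an interferon-gamma-induced GTPase, was 80.1, 49.95, 86.8 and 92.2 CPM in air and 62.1 to 68.9 CPM in silica, and Bst2, which tethers budding virus, was 299, 246, 350 and 319 CPM in air and 247 to 270 CPM in silica. In both the second value is air library 4-8, which lay below the silica range while the other 3 air libraries lay above it. With all libraries the log2 changes were -0.25 for Igtp (adjusted p = 0.334) and -0.23 ± 0.08 for Bst2 (adjusted p = 0.0810). Without air library 4-8, 4 members passed downward, while genes called in all went from 1836 to 2240. The 4 members were Bst2 (-0.32, adjusted p = 0.000895), Igtp (-0.42, adjusted p = 0.000144), Psmb8 (-0.25, adjusted p = 0.0166) and Tap1 (-0.31, adjusted p = 0.00474). Air library 4-8 was the lowest of the 4 air libraries in 30 of 38 members, including 6 of 6 gamma-induced ones, and in 31.1% of all genes. Its summed markers of natural killer cells and large granular lymphocytes were 822 CPM, against 360 CPM in the lowest air library and 231 to 842 CPM in silica. Whether that bears on the result was not tested.

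**Figure D1:**
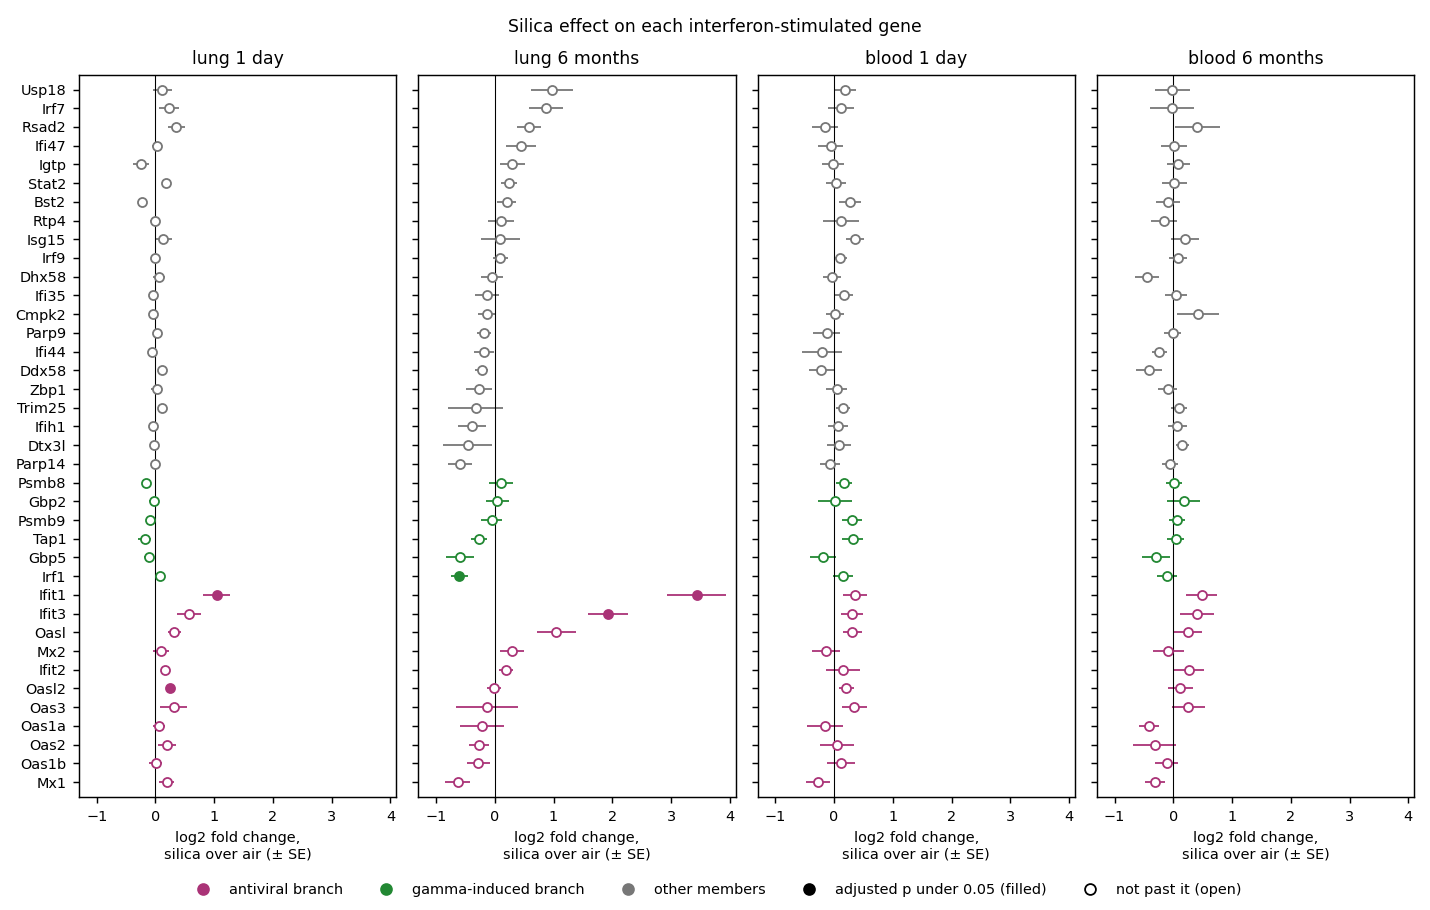
Log2 fold change, silica over air, with its standard error (horizontal axis) for each of the 38 members (vertical axis, grouped by branch) in 4 panels for tissue and time; filled points passed an adjusted p of 0.05. Filled points are Ifit1 and Oasl2 in lung at 1 day and Ifit1, Ifit3 and Irf1 in lung at 6 months, and both blood panels have none.

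In lung at 6 months, Ifit1 was 10.8-fold and Ifit3 3.81-fold higher in silica, and Irf1, the transcription factor that carries much of the interferon gamma response, fell to 0.659 of its air level. These 2 rises and 1 fall among 38 members stand beside 9.51% and 10.1% of all genes. The antiviral branch did not move as a block: 5 of 11 estimates were above 0, with a median log2 fold change of -0.01. The gamma-induced branch had 2 of 6 above 0 and a median of -0.16, and the other members 10 of 21 and a median of -0.05, beside 8106 of 16267 and -0.0026 for all genes.

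Ifit1 at 6 months was 0.520 and 0.228 CPM in the air libraries and 2.52, 4.34, 5.47, 4.81 and 2.89 CPM in the silica libraries, from 4 to 12 counts in each air sample and 40 to 106 in each silica sample. Every silica library lay above both air libraries. The log2 fold change was 3.44 ± 0.50 (adjusted p = 0.00743). Ifit3 was 22.6 and 30.7 CPM in air and 58.0, 100, 141, 113 and 96.3 CPM in silica, again without overlap, with a log2 change of 1.93 ± 0.34 (adjusted p = 0.0105). Counts of Ifit3 were whole in every sample, so its reads were not shared in the way those of Ifit1 were. Irf1 was 212 and 200 CPM in air and 148, 114, 140, 122 and 155 CPM in silica, with every silica library lower, a log2 change of -0.60 ± 0.14 and an adjusted p of 0.0245.

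Only 2 air libraries stand behind these values. Leaving out either leaves an air group of 1 library, which is then assumed to vary like the silica libraries, and genes called in all fell from 3189 to 56 without 19-24 and to 1063 without 20-25. Without air library 19-24, the adjusted p was 0.0669 for Ifit1 (log2 4.12), 0.130 for Ifit3 (1.75) and 0.224 for Irf1 (-0.54). Without air library 20-25 it was 0.0442 for Ifit1 (2.95), 0.0505 for Ifit3 and 0.101 for Irf1 (-0.62), so that Ifit1 lost its call in 1 of these fits and Ifit3 and Irf1 in both. Irf1 was also past the threshold no longer without silica library 34 (adjusted p = 0.0617). Without silica library 30-31, Irf7 (1.03, adjusted p = 0.0123), Oasl (1.18, 0.0400) and Usp18 (1.13, 0.0411) passed as well. Genes called in all were 3567 in that fit.

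Several members stood apart at 6 months without passing the test. Oasl was 7.27 and 14.03 CPM in air and 15.4, 17.6, 29.0, 23.7 and 25.01 CPM in silica, a log2 change of 1.05 ± 0.34 (adjusted p = 0.0647). Usp18, which removes Isg15 from its targets and damps receptor signalling, was 13.3 and 16.4 CPM in air and 17.6 to 42.2 CPM in silica (0.97 ± 0.36, adjusted p = 0.0998). Irf7 was 52.3 and 68.4 CPM in air and 67.9, 99.0, 145, 122 and 119 CPM in silica (0.87 ± 0.28, adjusted p = 0.0682), where silica library 30-31 overlapped the air range. Rsad2 changed by 0.58 ± 0.20 (adjusted p = 0.0775). Ifit1, Ifit3, Oasl, Rsad2 and Usp18 had all silica libraries above both air libraries, 5 of 38 members, a state found in 21.2% of all genes with groups this small.

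Members also stood below air. Mx1 was 111 and 166 CPM in air and 68.7, 75.1, 98.3, 104 and 98.7 CPM in silica (-0.63 ± 0.21, adjusted p = 0.0777). Parp14, an ADP-ribosyltransferase, was 272 and 363 CPM in air and 147 to 251 CPM in silica (-0.59 ± 0.21, adjusted p = 0.0906). Gbp5, which promotes inflammasome assembly, was 110 and 128 CPM in air and 56.2 to 107 CPM in silica (-0.58 ± 0.24, adjusted p = 0.127). Gbp5, Irf1, Mx1, Oas2 and Parp14 had all silica libraries below both air libraries, 5 of 38 members, beside 23.7% of all genes. Oas2 is named after its values were seen. Of the remaining fixed examples, the log2 changes were 0.10 for Isg15, -0.22 for Oas1a, 0.04 for Gbp2, 0.11 for Psmb8, -0.05 for Psmb9 and -0.27 for Tap1, with adjusted p values of 0.186 or more.

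**Figure D2:**
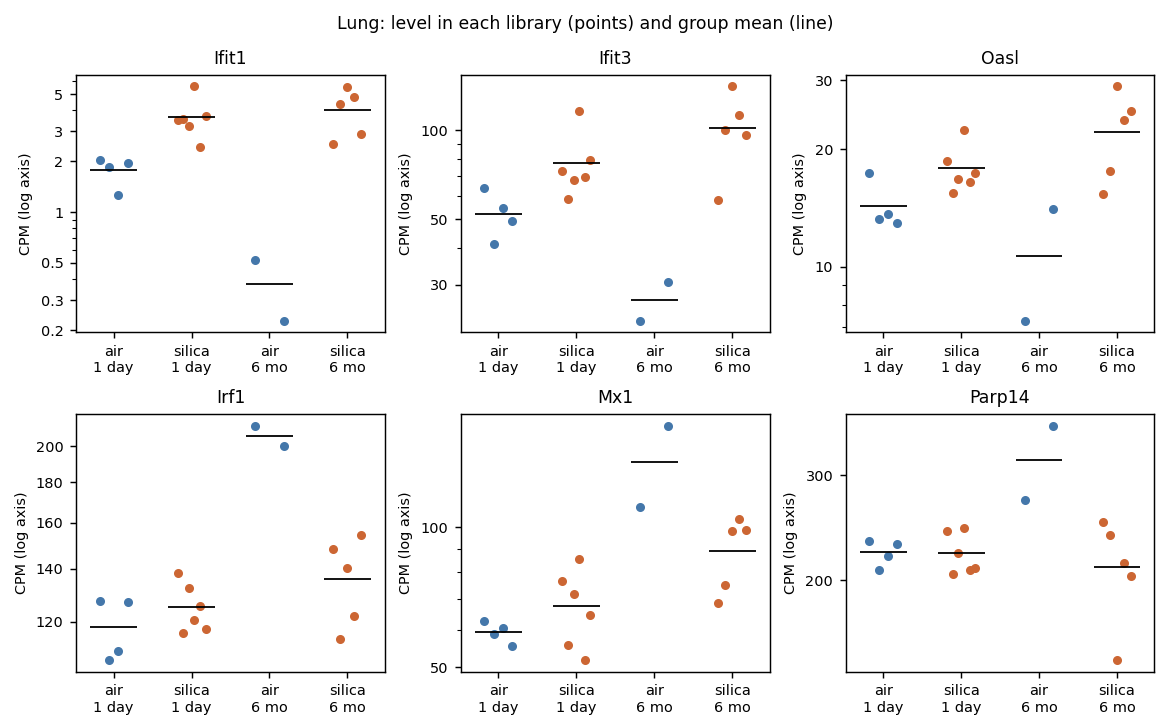
CPM of 6 members in every lung library (points, vertical log axes) with the group mean (line), for air and silica at 1 day and 6 months. Ifit1 in the 6-month air libraries lies at 0.228 and 0.520 CPM, under every other library, and Irf1 in the same libraries lies at 200 and 212 CPM, above every other library.

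The silica effect on Ifit1 was larger at 6 months than at 1 day, by 2.37 ± 0.50 on the log2 scale (adjusted p = 0.00328), and so was that on Ifit3 (1.33 ± 0.37, adjusted p = 0.0145). The effect was lower at 6 months for Irf1 (-0.71 ± 0.14, adjusted p = 0.00243), Mx1 (-0.85 ± 0.24, adjusted p = 0.0177), Ddx58, the RNA sensor RIG-I (-0.36 ± 0.11, adjusted p = 0.0208), and Parp14 (-0.61 ± 0.20, adjusted p = 0.0298). These 2 and 4 members of 38 stand beside 12.1% and 14.6% of all genes. The air groups differed between times as well as the silica groups. Median Ifit1 was 1.91 CPM at 1 day and 0.374 at 6 months in air, and 3.54 and 4.34 CPM in silica. Median Irf1 was 119 and 206 CPM in air, and 123 and 140 CPM in silica. Median Mx1 was 59.7 and 138 CPM in air, and 68.3 and 98.3 CPM in silica. Each time has its own table, scaled on its own, and these medians were not tested between times.

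The difference for Ifit1 passed in all 22 other fits, with adjusted p values up to 0.0319. That for Ifit3 was lost without air library 19-24 of 6 months (1.14, adjusted p = 0.129). Without air library 20-25 the differences of Mx1 (-0.50, adjusted p = 0.203), Ddx58 (-0.16, 0.346) and Parp14 (-0.36, 0.262) were lost, and that of Parp14 also without air library 5 of 1 day (0.0524). In a single fit of all 8 groups, 0 of the 4 lower differences passed: the value was -0.53 for Irf1 (adjusted p = 0.272), -0.68 for Mx1 (0.231), -0.19 for Ddx58 (0.818) and -0.45 for Parp14 (0.352). That fit called 855 genes in all, against 4436, and put the median of all genes at 0.15 on the log2 scale.

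Upstream of the members, 9 ligand genes were followed. In lung at 1 day 1 had enough counts to be tested (0 passed), and at 6 months 3 had (1 fell and 0 rose). Beside these, 9.51% of all genes rose and 10.1% fell at 6 months. Ifnb1, Ifna4 and Ifnk had 0 counts in all 46 samples, Ifna1 had 2 counts in 1 blood sample, and Ifne had 1 count in each of 2 lung samples. Before scaling, a count of 0 allows up to 0.282 CPM in the shallowest sample. Scaling raises the floor of a library with a factor under 1, such as blood silica library 31 (0.521). Ifng, which encodes interferon gamma, fell in lung at 6 months: it was 0.924 and 0.911 CPM in air and 0 to 0.280 CPM in silica, from 14 to 25 counts per air sample and 0 to 5 per silica sample. The groups did not overlap, and the log2 change was -2.62 ± 0.64 (adjusted p = 0.0284). It was lost without air library 19-24 (adjusted p = 0.192), air library 20-25 (0.121), silica library 34 (0.0666) or silica library 35 (0.0641), the first 2 of which leave 1 air library. The log2 change stayed between -2.94 and -2.31 over all 12 other fits. At 1 day Ifng had 0 to 2 counts in air and 1 to 6 in silica and was not tested at that time alone. Between times the effect on Ifng differed by -4.10 (adjusted p = 0.00930), on these few counts. That call was lost in the fit of all 8 groups (adjusted p = 0.0698).

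Receptor and signalling genes carry the signal to the members. At 1 day 3 of 12 rose and 0 fell: Ifngr2, a chain of the interferon gamma receptor (0.34 ± 0.05 log2, adjusted p = 0.000764), the kinase Jak2 (0.17, adjusted p = 0.0252) and the shared receptor chain Il10rb (0.15, adjusted p = 0.0318). Ifngr2 passed in all 15 other fits, whereas Jak2 lost its call in 9 and Il10rb in 11 of them. At 6 months 4 of 12 rose and 2 fell. All genes rose and fell in 7.61% and 4.07% of cases at 1 day, and in 9.51% and 10.1% at 6 months. Ifngr2 was 26.8 and 29.6 CPM in air and 52.0 to 69.0 CPM in silica, all above air, a log2 change of 1.12 ± 0.14 (adjusted p = 0.00527, and 0.0758 without air library 19-24). Socs3, a feedback inhibitor (0.89), and Ifnlr1, the type III interferon receptor (0.84), rose too. Of 12 other fits, the call was lost in 2 for Socs3 and in 1 for Ifnlr1. Socs1 did not pass at 1 day (0.01) or 6 months (0.65). Between times the effect on the kinase Jak1 differed by -1.03 (adjusted p = 0.00151), and the effects on Ifngr2 (0.75) and Ifnlr1 (0.85) were larger at 6 months.

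Sensors and adaptors rose at 1 day in 6 of 15 cases and fell in none, beside 7.61% and 4.07% of all genes. Those with the smallest p were Tmem173, the DNA-sensing adaptor STING (13.5 to 22.2 CPM in air, 31.3 to 36.5 in silica, 0.96 ± 0.11 log2), the kinase Ikbke (0.44), Irf5 (0.48) and Irf8 (0.41). At 6 months 3 of 15 rose and 1 fell, beside 9.51% and 10.1% of all genes. The rises were Ciita, the class II transactivator (1.34), Ikbke (0.50) and the RNA sensor Tlr7 (0.77), while Irf5 fell by 0.57. Of 12 other fits, the call was lost in 1 for Ciita and in 4 each for Ikbke, Tlr7 and Irf5. For all of them this included the fit without air library 19-24, which leaves 1 air library. Irf5 thus changed in opposite directions at the 2 times, with a difference of -1.08 (adjusted p = 0.000384).

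Among 29 tested of 30 other interferon-induced effectors, 5 rose and 0 fell at 1 day, beside 7.61% and 4.07% of all genes. The effectors that rose included Lgals3bp (0.34), the checkpoint ligand Cd274 (0.38), the Isg15-conjugating enzyme Ube2l6 (0.36) and the chemokine Cxcl11 (1.57 ± 0.44, adjusted p = 0.0333). At 6 months 2 rose and 1 fell, beside 9.51% and 10.1% of all genes. Cxcl11 was 0 and 0.364 CPM in air and 1.12 to 8.36 CPM in silica, a log2 change of 4.49 ± 1.18 (adjusted p = 0.0350) that leans on few counts. Its call was lost without air library 19-24 (adjusted p = 0.219) or 20-25 (0.0666), and at 1 day its call was lost without any of 6 of the 10 libraries. Cd274 rose by 0.92 ± 0.21 and the nuclear body protein Sp100 fell by 0.49. Each lost its call in 3 of 12 other fits, among them the fit without air library 19-24, which leaves 1 air library. Cxcl9 and Cxcl10, chemokines that attract T cells, did not pass at 1 day (0.15 and 0.52) or 6 months (0.97, adjusted p = 0.155, and 1.56 ± 0.58, adjusted p = 0.0978).

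Markers of other cells changed too, in lung where 7.61% of all genes rose and 4.07% fell at 1 day. At 6 months 9.51% of all genes rose and 10.1% fell. Of 12 markers of natural killer cells and large granular lymphocytes, 10 fell and 0 rose in lung at 6 months, and their summed level was 3166 and 3580 CPM in air and 356 to 1125 CPM in silica, with none at 0. At 1 day 0 of 12 passed, and the sums were 360 to 822 CPM in air and 231 to 842 CPM in silica. Neutrophil markers rose in 7 of 8 cases at 1 day (sums 379 to 459 CPM in air, 1223 to 1660 in silica) and in 8 of 8 at 6 months (169 and 239 CPM in air, 1201 to 3352 in silica). Monocyte markers rose in 4 of 8 cases at 1 day (sums 21901 to 25649 CPM in air, 27489 to 31074 in silica) and in 6 of 8 at 6 months (14291 and 15600 CPM in air, 26825 to 55336 in silica). The same list summed to only 4748 to 7055 CPM in blood air libraries at 1 day. What part of the lung sums came from monocytes was not tested. Of 10 T cell markers at 6 months 6 rose and 2 fell, with a median log2 change of 1.54. Their sum was 776 and 943 CPM in air and 286 to 521 CPM in silica, since the 2 that fell, Cd8a (-2.55) and Lck (-1.86), were the most abundant in air. Plasmacytoid dendritic cell markers, 1 of which is the member Bst2, summed to 366 to 487 CPM in air and 384 to 437 CPM in silica at 1 day, and to 442 and 722 against 423 to 532 CPM at 6 months. The part of these cells in the changes of Ifng, Irf1 or the Ifit genes was not tested, and in whole lung fewer cells of a type and less RNA per cell cannot be told apart.

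**Figure D3:**
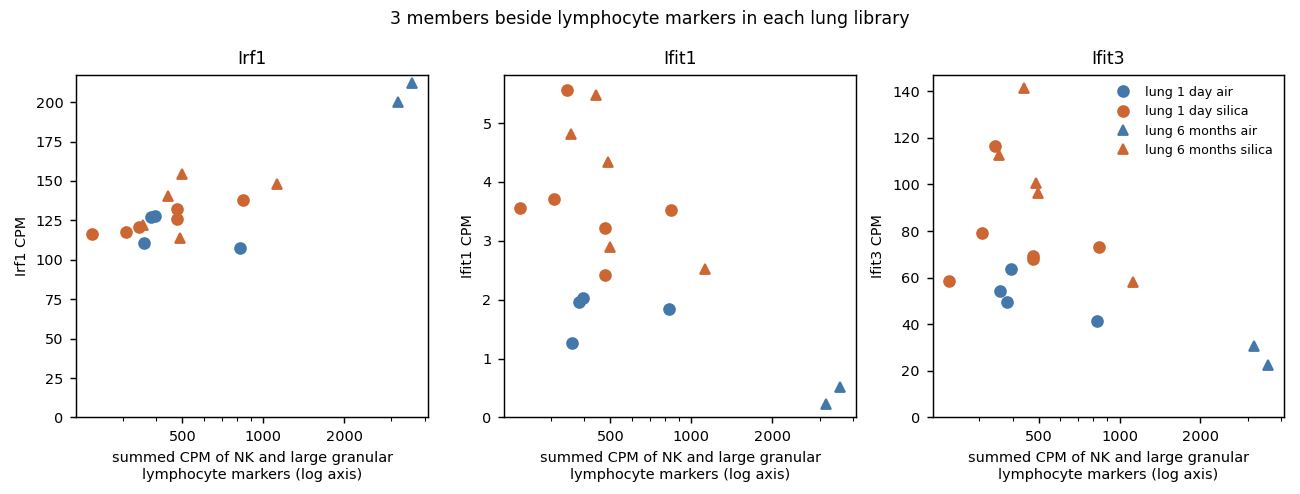
CPM of Irf1, Ifit1 and Ifit3 (vertical axes) against the summed CPM of 12 markers of natural killer cells and large granular lymphocytes (horizontal log axis) in each lung library, coloured by treatment and shaped by time. The 2 air libraries of 6 months, at 3166 and 3580 CPM of markers, lie apart from all others and have the highest Irf1 and the lowest Ifit1 and Ifit3.

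In blood no member passed the test at either time, and neither did any gene: 0% of 11876 genes at 1 day and 0% of 11615 at 6 months, in either direction. By edgeR, 430 and 720 genes had an unadjusted p under 0.05, and DESeq2 called 0 genes at 1 day and 2 at 6 months, none of them members. At 1 day 1 member was under an unadjusted p of 0.05. This was Isg15, at 61.0 to 111 CPM in air (median 96.0) and 96.2 to 136 CPM in silica (median 122), a log2 change of 0.36 ± 0.15 with an adjusted p of 1.00. The antiviral branch had 8 of 11 estimates above 0 (median log2 0.15), the gamma-induced branch 5 of 6 (0.16) and the other members 13 of 21 (0.05), beside 5683 of 11876 genes (-0.010).

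Other estimates at 1 day in blood were of similar size in both directions. Ifit1 was 14.4 to 28.7 CPM in air (median 24.4) and 19.4 to 43.6 CPM in silica (median 28.1), a log2 change of 0.35. Oas3 changed by 0.35 and Tap1 by 0.32, while Mx1 changed by -0.27, Ddx58 by -0.22, Ifi44 by -0.20 and Gbp5 by -0.19. Groups overlapped for all 38 members, and the share of all genes without overlap was not taken in blood. The other fixed examples lay between -0.15 for both Oas1a and Rsad2 and 0.30 for Psmb9, with 0.12 for Irf7, 0.01 for Gbp2, 0.15 for Irf1 and 0.17 for Psmb8.

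At 6 months in blood 2 members had an unadjusted p under 0.05, both downward: Oas1a (14.3 to 27.8 CPM in air, 10.4 to 17.4 in silica, -0.41) and Dhx58, a helper of the RNA sensors (12.5 to 16.6 CPM in air, 6.15 to 15.8 in silica, -0.44), each with an adjusted p of 0.658. The largest estimates upward were Ifit1 (0.48), Cmpk2 (0.42), Rsad2 (0.41) and Ifit3 (0.41), and downward Dhx58, Ddx58 (-0.41), Oas1a and Oas2 (-0.32). The antiviral branch had 6 of 11 above 0 (median 0.12), the gamma-induced branch 4 of 6 (0.02) and the other members 11 of 21 (0.01), beside 5906 of 11615 genes (0.0051). The remaining fixed examples were Isg15 0.20, Mx1 -0.31, Irf7 -0.02, Gbp2 0.17, Irf1 -0.10, Psmb8 0.01, Psmb9 0.06 and Tap1 0.04. Without libraries 25 and 31 together, 0 members passed. None of the tested receptor, sensor, ligand or effector genes passed in blood at either time, and Socs1 (-0.04 and -0.26) and Cxcl10 (-0.12 and 0.41) were among them. The silica effect in blood differed between times for 0 members and for 0% of 12264 genes.

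The effect on Ifit1 was lower in blood than in lung at 6 months, by -3.09 ± 0.63 on the log2 scale (adjusted p = 0.0203), the 1 member of 38 that passed, beside 0.559% of all genes downward and 0.614% upward. Without lung air library 19-24 the adjusted p was 0.177 (-3.69), and without 20-25 it was 0.196 (-2.61). Without blood air library 25, 4 members passed downward, while genes called in all went from 193 to 1257. The chemokine Cxcl11 passed as well (-6.81, adjusted p = 0.0406), from 0 to 8 counts per sample in blood, and lost its call in 16 of 26 other fits, among them without lung air library 19-24 (adjusted p = 0.413). At 1 day 0 members differed between tissues, beside 0.0186% of all genes upward and 0.173% downward. The largest differences were Ifit1 at -0.65, and Tap1 and Bst2 both at 0.53, with adjusted p values of 0.643 or more.

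Levels in the tissues are set side by side as medians of the air groups at 1 day, with no test, since each tissue was scaled in its own table. Of 11526 genes tested in both tables, 17.4% had a higher CPM in blood, and the median blood to lung ratio was 0.367. In the antiviral branch 8 of 11 genes had a higher CPM in blood (median ratio 1.76), beside 0 of 6 in the gamma-induced branch (0.789) and 7 of 21 other members (0.763). Rsad2 was 23.6 CPM in lung and 2200 CPM in blood, a ratio of 93.2. Irf7 was 79.2 and 2006 CPM (25.3), Ifit1 1.91 and 24.4 CPM (12.8) and Ifit3 51.9 and 431 CPM (8.31). Bst2 was at the other end, with 309 CPM in lung and 32.2 CPM in blood (0.104), a gene chosen here after its values were seen.

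**Figure D4:**
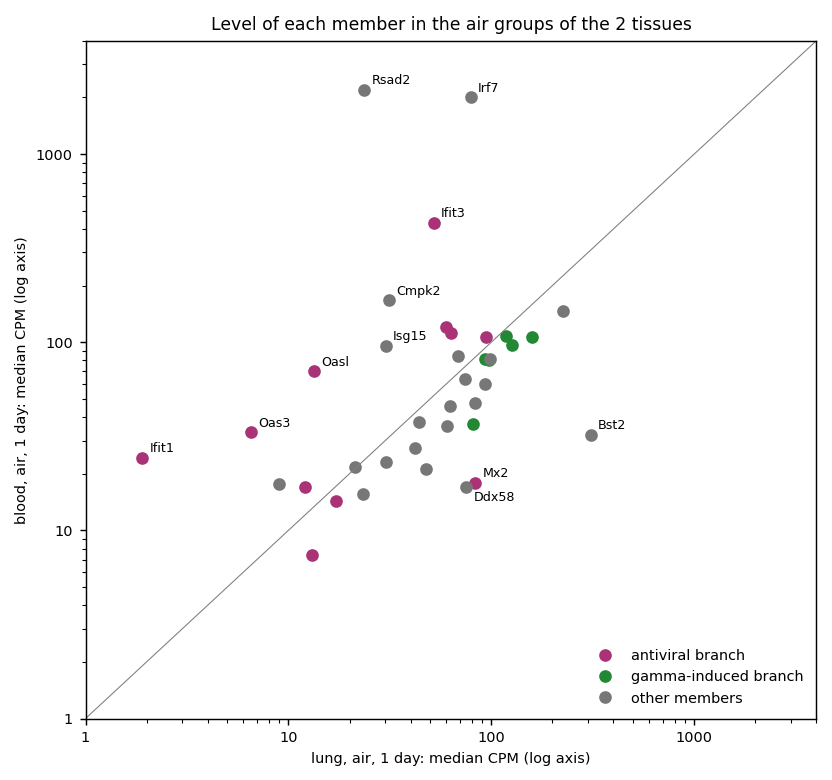
Median CPM of each of the 38 members in the air groups at 1 day, lung on the horizontal and blood on the vertical log axis, coloured by branch, with a line of equal level. Rsad2 and Irf7 lie far above the line, at ratios of 93.2 and 25.3, Bst2 far below it at 0.104, and the 6 gamma-induced genes all lie under it.

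Spread between libraries was compared by the biological coefficient of variation (BCV) of the edgeR fit, the part of the variation beyond counting error. In lung at 1 day the median BCV was 14.1% over the antiviral branch, 8.90% over the gamma-induced branch and 8.20% over the other members. In lung at 6 months the medians were 20.2%, 17.5% and 19.7%. In blood they were 27.3%, 22.7% and 23.2% at 1 day and 31.7%, 20.8% and 24.8% at 6 months. The antiviral branch thus had the highest median in each of the 4 tables. Placed among the 1000 genes nearest in abundance, the median member of the antiviral branch stood at percentile 88.5 and 72.0 in lung and 75.7 and 78.5 in blood, at 1 day and 6 months. The gamma-induced branch stood at 90.3, 60.7, 56.5 and 41.1 in the same order, and the other members at 81.7, 70.8, 60.8 and 67.5. At like abundance the gamma-induced branch thus stood above the antiviral branch in lung at 1 day. The spread of Rsad2 and Irf7 in blood at 6 months was 42.9% each, from 784 to 6095 CPM for Rsad2 and from 599 to 4076 CPM for Irf7. The highest Rsad2 value was that of silica library 31, which had the lowest scaling factor in blood (0.521). The part of scaling in this spread was not tested.

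A branch index was taken for each library as the mean log2 ratio of a branch's genes to their air mean. In lung at 1 day the antiviral index was -0.17 to 0.17 in air and 0.08 to 0.65 in silica, with silica library 13 at the top. That library was the highest silica library in 10 of 11 antiviral genes and 0 of 6 gamma-induced genes, where it was the highest for 14.2% of all genes. The gamma-induced index was -0.26 to 0.13 in air and -0.16 to 0.05 in silica. In lung at 6 months the antiviral index was -0.17 and 0.17 in air and 0.19 to 0.65 in silica, a shift carried by Ifit1 (log2 3.44), Ifit3 (1.93) and Oasl (1.05), since the median change of the branch was -0.01. The gamma-induced index was -0.10 and 0.10 in air and -0.48 to -0.05 in silica. Air library 20-25 exceeded 19-24 in 36 of 38 members, beside 47.3% of all genes.

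In blood the indices of air and silica overlapped at both times. At 1 day the antiviral index was -0.46 to 0.34 in air and -0.21 to 0.45 in silica, and air library 4 was the lowest of its group in 32 of 38 members, beside 15.2% of all genes. At 6 months it was -0.94 to 0.45 in air and -0.44 to 0.32 in silica. The lowest were air library 25, lowest of its group in 26 members (36.1% of all genes), and silica library 31, lowest in 24 (22.7% of all genes). Library 25 had a summed level of natural killer and large granular lymphocyte markers of 1963 CPM, against a median of 474 CPM in its group, and library 31 had the most erythroid RNA, at 292113 CPM. Their part in the spread was not tested. The gamma-induced index ran from -0.22 to 0.32 in air and from -0.43 to 0.35 in silica.

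**Figure D5:**
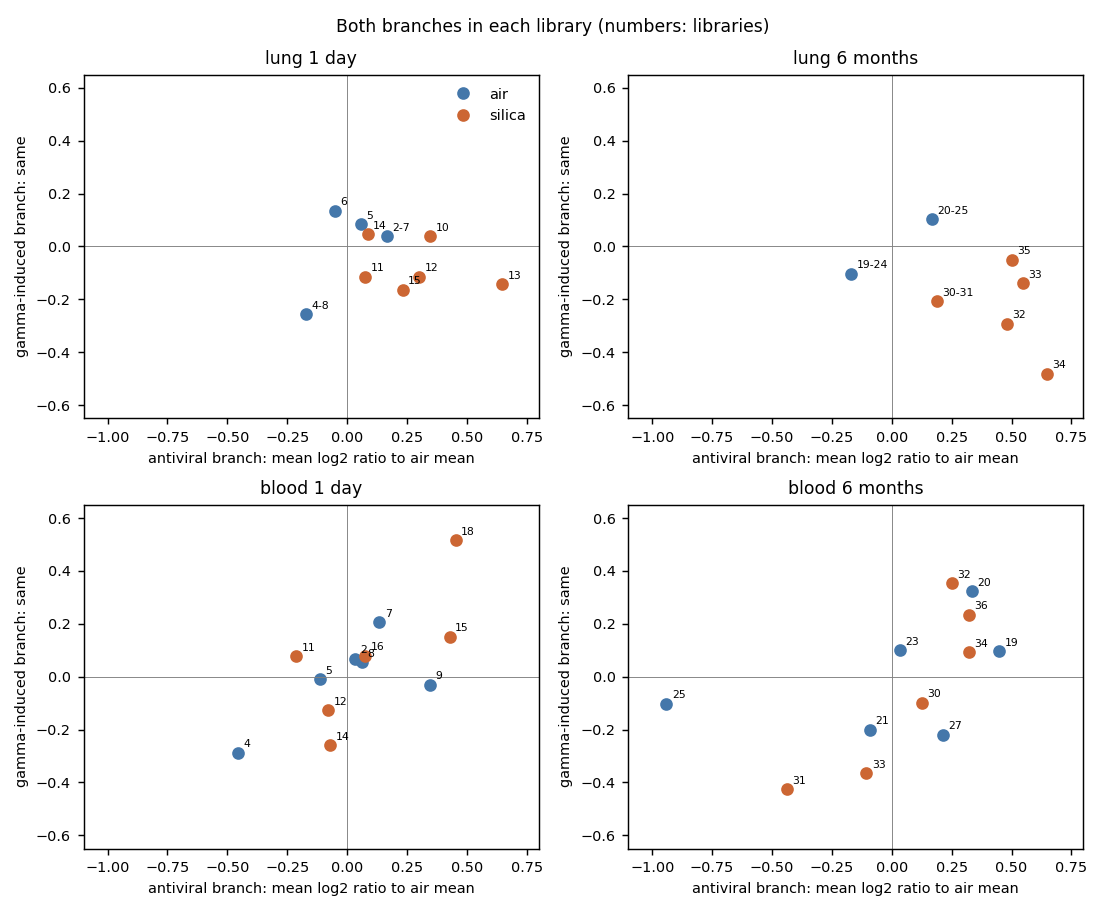
Mean log2 ratio to the air mean of the antiviral branch (horizontal) and the gamma-induced branch (vertical) in each library, 1 panel per tissue and time, labelled by library number. In lung at 6 months the 5 silica libraries lie right of both air libraries, at 0.19 to 0.65, which Ifit1, Ifit3 and Oasl carry, and in blood air and silica points are mixed.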

How the data were processed

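RNA was sequenced from 22 lung and 24 blood samples. Per the labels' protocols, lung RNA came from a fibrous-tissue kit, globin messenger RNA was depleted from blood, and strand-specific libraries were prepared from polyadenylated RNA. Salmon 1.10.1, STAR 2.6.1d, cutadapt 3.4, Trim Galore 0.6.7, bcl2fastq 2.19 and the build Rnor_6.0 stand in the submitters' processing notes without roles, and the annotation release was not given in the sources used here. As deposited by the authors, the values are Salmon's estimated counts for each gene, unscaled, and 0 columns were left unmatched. Reads that fit several transcripts are split by Salmon, so counts need not be whole (tolerance 1e-06). Members with split counts in 100% of samples were Ifit1, Mx1, Mx2, Oas1a, Igtp and Psmb8, followed by Dtx3l (95.7%), Oas1b (80.4%), Parp9 and Tap1 (45.7% each), Ifi44 (39.1%), Irf9 (34.8%), Ifi47 (30.4%), Irf7 (28.3%), Dhx58 (19.6%) and Stat2 (13.0%). These are shares of samples, not of reads, so the levels of those genes are uncertain to an extent that was not measured.

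Counts were rounded. Within groups, pairs of samples that differed at an unadjusted chi-square p under 0.05 in under 10% of genes with a mean of 20 or more counts were averaged. The pair test used genes whose counts were whole in the samples compared, a restriction made after seeing the data, since split counts are not sampled counts. Over all genes the averaged pairs differed in 9.58% to 11.5% and the other lung pairs in 22.8% to 74.2%. Silica was tested against air in each table with edgeR 4.0.16 in R 4.3.3: filterByExpr (minimum count 10, total 15), TMM scaling, robust quasi-likelihood F test, and Benjamini-Hochberg adjustment over all genes tested at 0.05. Differences between times or tissues were interaction contrasts. All 38 members found passed the filter in each comparison, and all comparisons of a table share its libraries. CPM used TMM-scaled library sizes. The branch index used an offset of 0.01 CPM. The floor of 3 counts covers counting error only, whereas standard errors and standard deviations include the spread between libraries. The labels do not say that samples of a group are separate animals, so the p-values measure only how these samples spread, which may be technical.

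The members and lists were chosen with earlier results of these data known. Values are given for members past the threshold, the 4 largest rises and falls per comparison, and the fixed examples Ifit1, Isg15, Mx1, Oas1a, Rsad2, Irf7, Gbp2, Irf1, Psmb8, Psmb9 and Tap1. Of the pathway genes, at most 4 called per list (smallest p) are named, plus Ifng, Cxcl9, Cxcl10 and Socs1, and 1 further gene under that rule is not reported here. Alternatives were RLE scaling, DESeq2 1.42.0, no filter, near-identical libraries kept separate, all groups in 1 fit, each library left out and the animal number as a block. The method was checked on simulated data with set changes. A log2 change of 1 was recovered in 93% and 33% of cases in lung at 1 day and 6 months, and in 74% and 61% in blood. For a log2 change of 2 the shares were 98%, 90%, 98% and 93% in that order. In the simulated data moderate changes were thus missed, most of all in lung at 6 months. False calls made up 5.91%, 8.21%, 4.97% and 4.35% of calls, which is above the adjusted p threshold in both lung tables. The simulation changed 100 genes at each size, whereas 3189 genes were called in the measured lung data at 6 months. These shares may therefore not carry over to the measured data. Coordinates come from RefSeq on GRCr8, not the build of the counts, and only sequence and gene order were taken from it.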

Additional observations from a re-analysis of the deposited data

Results flagged for a closer look

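Each of 38 members and 4 branch indices was taken in 7 groups of 4 to 6 libraries, 294 sets in all. Of these, 13 sets, all of members, had a library whose gap to the next exceeded Dixon's 95% value, where chance alone gives about 1 in 20 sets. Each is given as CPM beside the range of its group's other libraries.

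In lung at 1 day, Ifit3 in silica library 13 was 116 (others 58.6 to 79.3). Ifi35 in silica library 10 was 33.4 (27.6 to 29.6). Oasl in air library 2-7 was 17.4 (12.96 to 13.60), and Tap1 in air library 4-8 was 89.7 (125 to 132). In lung at 6 months, Gbp2 in silica library 34 was 147 (186 to 196).

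In blood at 1 day, air library 9 was low for Ifit1, at 14.4 (23.6 to 28.7), and high for Oas1a, at 32.7 (8.73 to 17.3). Igtp in silica library 18 was 75.2 (29.5 to 45.6). In blood at 6 months, air library 25 was high for Ddx58, at 36.2 (14.3 to 18.4), and low for Oasl, at 17.3 (44.5 to 59.9). Silica library 32 was high for Igtp, at 56.4 (37.5 to 42.7), and for Isg15, at 143 (82.9 to 99.8). Rsad2 in silica library 31 was 6095 (1716 to 3136).

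The silica effect differed between groups, by edgeR's interaction test, for 7 results on the log2 scale. In lung, 6 months minus 1 day, these were Ifit1 2.37, Ifit3 1.33, Irf1 -0.71, Mx1 -0.85, Ddx58 -0.36 and Parp14 -0.61. At 6 months, blood minus lung, it was Ifit1 at -3.09.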

How the results depend on the processing

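Counts of members past the threshold moved with the processing in lung, and so did genes called in all. At 1 day genes called in all were 1836 in the results above, 594 with all lung groups in 1 fit and 2152 with DESeq2. At 6 months they were 3189 in the results above, 4251 with DESeq2, 6396 with separate libraries and 6499 with all lung groups. For blood minus lung at 6 months they were 193, and 795, 797 and 718 with DESeq2, separate libraries and all 8 groups in 1 fit. In lung at 1 day the 2 members higher became 1 with RLE scaling, without the filter and with all lung groups in 1 fit, and 4 with DESeq2 (Ifit1, Ifit3, Oasl2 and Stat2), with 1 to 3 when 1 library was left out. The 0 lower became 1 with DESeq2 (Bst2), and 0 to 4 with 1 library left out. At 6 months the 2 higher became 6 with DESeq2, with near-identical libraries kept separate and with all lung groups in 1 fit (Ifit1, Ifit3, Irf7, Oasl, Rsad2 and Usp18 each time), and 0 to 5 with 1 library left out. The 1 lower became 2 with DESeq2 and 5 with separate libraries or all groups in 1 fit, and 0 to 1 with 1 library left out. For the difference between times in lung, the 2 higher ranged over 1 to 5 and the 4 lower over 1 to 5 with 1 library left out, and the lower were 0 with all 8 groups in 1 fit. For blood minus lung at 6 months, the 1 lower became 2 with DESeq2, with separate libraries and with all 8 groups in 1 fit, and ranged over 0 to 4 with 1 library left out. Counts in blood, between times in blood and between tissues at 1 day were 0 in every fit run.

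With the animal number as a replicate block, blood minus lung at 6 months had 0 members lower, and 0 as well on the same libraries without the animal term (chosen after seeing the data). The correlations of same-numbered samples were -0.12 to 0.28, and 4 of 17 numbers correlated best with their own, so the numbers were not taken as pairs.

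Of 152 log2 changes of members between silica and air, 61 turned sign in a fit without 1 library, none past the threshold in either fit. In 12 of them the move also exceeded the standard error of the change, over these ranges. In lung at 1 day they were Ifi47 -0.081 to 0.066 and Rtp4 -0.078 to 0.10, turned without air 4-8 and air 5. In lung at 6 months, turned without air 20-25, they were Cmpk2 -0.30 to 0.090, Dhx58 -0.29 to 0.28, Ifi44 -0.40 to 0.12, Oas1a -0.58 to 0.32, Oas1b -0.56 to 0.12, Oasl2 -0.15 to 0.18 and Parp9 -0.31 to 0.0040, and turned without air 19-24, Gbp2 -0.23 to 0.43 and Isg15 -0.29 to 0.69. In blood at 1 day Oas1a ranged over -0.35 to 0.16, turned without air 9. Without blood libraries 25 and 31 of 6 months (chosen after seeing the data), the changes of Cmpk2 (-0.055), Ifi35 (-0.19) and Rsad2 (-0.079) turned. The cause was not tested. With 2 air libraries in lung at 6 months, leaving out either ended calls there, and Ifit1 had 4 to 12 counts in each of their air samples.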
